A study of Mus musculus with 11 samples.

Results

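Adipocyte genes were described in mammary tumours of mice by their RNA level, as a measure of how much fat cell RNA each tumour sample held and of how that amount related to skeletal muscle RNA. The set was a fixed list of 10 genes: Adipoq, Fabp4, Plin1, Plin4, Lep, Cfd, Cidec, Retn, Lpl and Pck1. All probes that the platform annotation gave to these genes were used, 12 probes of 9 genes among 19057 genes and 45281 probes on the array; no probe was named for Cfd. The arrays held 5 tumours of PyMT/SIRT6 mice and 6 tumours of PyMT mice, all from females aged 12 weeks, with 1 array per tumour. Both groups carried the PyMT transgene, the polyoma virus middle T oncogene under which mammary tumours arise spontaneously, and the PyMT/SIRT6 mice carried in addition the Sirt6BAC allele, which adds SIRT6, a chromatin deacylase, from a bacterial artificial chromosome. The labels do not state the promoter behind PyMT, the number of added Sirt6 copies or whether the tumours came from different mice. A p-value therefore reflects how far these arrays scatter, in which technical spread may have a share. Replicate numbers follow deposit order and pair no samples.

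Adipocytes store triglyceride in a single large lipid droplet and release hormones into the blood, and in the mouse mammary gland they form the fat pad in which the epithelium and its tumours grow. A tumour excised from that pad can carry fat with it, and muscle of the body wall or skin lies close by. Lep (leptin), Adipoq (adiponectin), Retn (resistin) and Cfd (adipsin) encode secreted products, Plin1, Plin4 and Cidec encode coat proteins of the lipid droplet, and Lpl, Fabp4 and Pck1 serve fatty acid uptake, fatty acid binding and the supply of glycerol phosphate. Lpl is also expressed by other cell types, macrophages among them, Fabp4 by macrophages and endothelium, and Pck1 by liver and kidney. In bulk tissue, fewer adipocytes and less RNA per adipocyte cannot be told apart.

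Upstream sequence of the 4 fat genes that varied together in the arrays and for which RefSeq (GRCm38.p6) gave a window is shown here, as the 250 bases before the annotated start, 5′ to 3′ on the gene's strand. Windows were matched for 8 of the 10 genes and not for Fabp4 and Lpl. Capitals mark CCAAT, the CCAAT box, and TTGCGCAA, a palindromic site of the C/EBP type, each searched on both strands. The windows lie at chr16:23146286-23146535 (plus strand) for Adipoq, chr17:56109783-56110032 (minus strand) for Plin4, chr6:29059971-29060220 (plus strand) for Lep and chr6:113435761-113436010 (minus strand) for the upstream of 2 starts of Cidec.
Adipoq: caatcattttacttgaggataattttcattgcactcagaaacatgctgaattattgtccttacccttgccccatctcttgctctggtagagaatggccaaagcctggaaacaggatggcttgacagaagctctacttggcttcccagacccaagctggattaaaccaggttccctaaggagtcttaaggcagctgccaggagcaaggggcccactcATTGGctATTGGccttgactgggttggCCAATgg
Plin4: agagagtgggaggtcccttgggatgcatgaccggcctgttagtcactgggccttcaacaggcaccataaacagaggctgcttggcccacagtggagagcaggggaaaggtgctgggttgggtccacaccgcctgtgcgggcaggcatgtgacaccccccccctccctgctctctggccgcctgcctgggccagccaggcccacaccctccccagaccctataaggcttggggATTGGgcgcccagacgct
Lep: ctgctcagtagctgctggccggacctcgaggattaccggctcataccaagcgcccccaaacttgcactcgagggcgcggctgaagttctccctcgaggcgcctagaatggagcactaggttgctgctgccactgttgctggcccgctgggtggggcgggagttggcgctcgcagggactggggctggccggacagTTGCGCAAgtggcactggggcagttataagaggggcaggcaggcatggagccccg
Cidec: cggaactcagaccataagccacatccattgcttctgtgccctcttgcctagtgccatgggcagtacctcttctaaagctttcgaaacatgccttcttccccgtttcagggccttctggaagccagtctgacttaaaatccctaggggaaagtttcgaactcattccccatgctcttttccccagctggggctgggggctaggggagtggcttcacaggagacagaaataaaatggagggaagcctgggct
Counted from the start, Adipoq held 3 CCAAT matches at positions -34, -27 and -7, the first pair on the opposite strand, and Plin4 held 1 at -18, also on the opposite strand, where the letters read ATTGG. Lep held the only TTGCGCAA match among the windows of these genes, at position -55. CCAAT occurred in 33.8% of the 32851 windows of this length that were searched and TTGCGCAA in 0.164%. The single site AGGTCA (14.0% of the windows searched), its direct repeat with any 1 base between the copies (0.0335%), the kind of element to which PPARG binds with RXR, and TATAAA (12.4%) had no match in any window of these genes. Every match of the repeat is also a match of AGGTCA. The Cidec windows held none of the motifs. A match describes these letters and is not evidence of a binding site.

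The arrays gave the following general picture. Pairs of arrays correlated between 0.957 and 0.993 over all probes, and no pair was identical. Sirt6 intensity on its brightest probe was 291 to 399 in PyMT/SIRT6 tumours and 199 to 236 in PyMT tumours, without overlap, and differed by 0.61 ± 0.09 (SE) on the log2 scale (limma adjusted p = 0.0574 over all features, 0.0268 to 0.581 over the alternatives, exact two-sided permutation p = 0.00216, the smallest that 462 splits can give). Of the 14726 features tested, 2 were called at an adjusted p under 0.05, which is 0.0136%, Tle6 and Tle5, both higher in PyMT/SIRT6 tumours. At an unadjusted p under 0.05 there were 653. As a check of the labelled tissue, chosen after its values were seen, Krt8, a keratin of luminal mammary epithelium, ran from 12.29 to 12.95 in PyMT/SIRT6 tumours and from 12.23 to 13.40 in PyMT tumours on the log2 scale, while the Epcam probe was dim, at 7.15 to 7.33 in PyMT/SIRT6 tumours and 7.16 to 7.35 in PyMT tumours.

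The deposited Adipoq intensity, background included, differed 7.31-fold between the highest and the lowest tumour, both of them PyMT tumours. Adipoq (probe ILMN_2738082), the most specific adipocyte product of the list, had intensities of 438, 197, 590.2, 655 and 912 in PyMT/SIRT6 tumours 1 to 5, against 184, 457, 296, 1345, 1089 and 494 in PyMT tumours 1 to 6. PyMT tumours 4 and 5 were highest and PyMT tumour 1 and PyMT/SIRT6 tumour 2 lowest. PyMT tumours 4 and 5 exceeded every PyMT/SIRT6 tumour, and the other 9 tumours of both genotypes were intermixed. Mean log2 intensity was 8.96 ± 0.84 in PyMT/SIRT6 tumours (SD, n = 5) and 9.00 ± 1.09 in PyMT tumours (SD, n = 6). The difference was -0.04 ± 0.50 (SE, limma adjusted p = 0.997, exact permutation p = 0.937), with a 95% interval from -1.12 to 1.04. True differences of any size inside that interval remain compatible with these arrays.

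Leptin, the other hormone that varied, followed mostly the same tumours. Lep (ILMN_2695964) had intensities of 171, 168, 239, 252 and 295 in PyMT/SIRT6 tumours 1 to 5, against 161, 217, 171, 294, 246 and 188 in PyMT tumours 1 to 6. PyMT/SIRT6 tumour 5 and PyMT tumour 4 were highest, and PyMT tumour 1 was lowest. The means were 7.78 ± 0.36 in PyMT/SIRT6 tumours (SD, n = 5) and 7.70 ± 0.33 in PyMT tumours (SD, n = 6) on the log2 scale, and the difference of 0.08 ± 0.18 (SE) did not pass (limma adjusted p = 0.984, 95% interval -0.30 to 0.46). Resistin gave no such pattern: Retn (ILMN_2721016) ran from 146 to 164 in PyMT/SIRT6 tumours and from 149 to 161 in PyMT tumours, at the level of the median probe of an array, which lay at about 157.5 on every array.

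Among the lipid droplet genes, Plin4 and Cidec varied and Plin1 hardly did. Plin4 (ILMN_2588249) had intensities of 303, 203, 426, 562 and 509.6 in PyMT/SIRT6 tumours 1 to 5, against 179, 477, 225, 701, 696 and 229 in PyMT tumours 1 to 6. PyMT tumours 4 and 5 were again highest, and PyMT tumour 1 and PyMT/SIRT6 tumour 2 lowest. Its difference of 0.07 ± 0.39 (SE) on the log2 scale did not pass (limma adjusted p = 0.991, 95% interval -0.78 to 0.91). Cidec (ILMN_1222679), whose protein fuses small droplets into large ones, had intensities of 183, 151, 194, 194 and 196 in PyMT/SIRT6 tumours 1 to 5, against 154, 180.5, 168, 254, 229 and 163 in PyMT tumours 1 to 6. PyMT tumours 4 and 5 led here too, and the other arrays stayed within 151 to 196. The difference was -0.04 ± 0.12 (SE, limma adjusted p = 0.985, 95% interval -0.31 to 0.23). The brighter probe of Plin1 (ILMN_2687984), the main gatekeeper of lipolysis, was at 146 to 151 in PyMT/SIRT6 tumours and at 147 to 175 in PyMT tumours, with its 2 highest values, 175 and 170.3, in PyMT tumours 5 and 4. The second Plin1 probe (ILMN_1233498) had its highest value, 162, in PyMT/SIRT6 tumour 1 and did not show this order.

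Lipoprotein lipase, which frees fatty acids from blood lipoproteins for storage, had the same order of tumours as adiponectin at the top. Lpl (ILMN_2692723) had intensities of 1079, 506, 1040.3, 1288 and 1711 in PyMT/SIRT6 tumours 1 to 5, against 739.8, 1104, 559, 3300.0, 2514 and 964 in PyMT tumours 1 to 6. PyMT tumours 4 and 5 exceeded every PyMT/SIRT6 tumour, while the remaining 4 PyMT tumours lay inside the range of the PyMT/SIRT6 group. The means were 10.03 ± 0.65 in PyMT/SIRT6 tumours (SD, n = 5) and 10.28 ± 1.01 in PyMT tumours (SD, n = 6), a difference of -0.25 ± 0.44 (SE, limma adjusted p = 0.983, 95% interval -1.20 to 0.71). The second Lpl probe (ILMN_2585447) stayed between 148 and 161 on all arrays. The only Fabp4 probe (ILMN_2615947) was at 141 to 148 in PyMT/SIRT6 tumours and 142 to 156 in PyMT tumours, and on the 2 arrays highest in Adipoq, PyMT tumours 4 and 5, it read 147 and 142. Fabp4 is among the most abundant mRNAs of adipocytes, but the values of this probe did not follow those of Adipoq. Whether the probe reports Fabp4 RNA could not be settled from these arrays. Pck1 was similarly dim on both probes, at 155 to 167 in PyMT/SIRT6 tumours and 151 to 168 in PyMT tumours on the brighter one (ILMN_1213632).

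**Figure D1:**
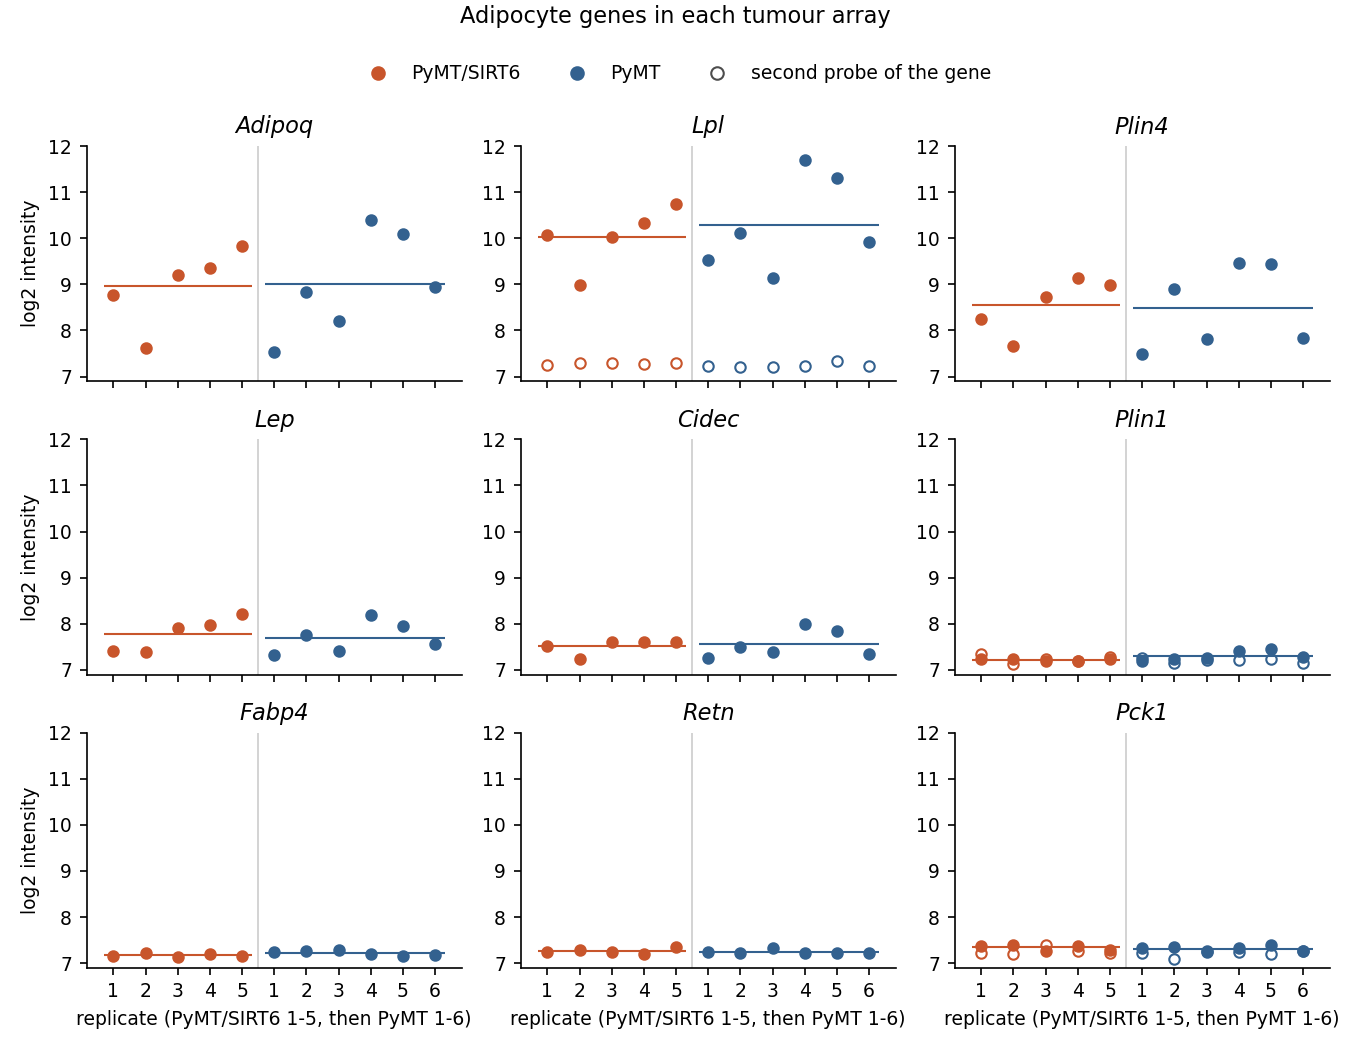
Log2 intensity of every probe of the 9 measured adipocyte genes on each array, PyMT/SIRT6 tumours 1 to 5 at the left (orange) and PyMT tumours 1 to 6 at the right (blue) of each panel; filled points are the brightest probe of a gene, open points its second probe, and lines are group means of the brightest probe. Adipoq, Lpl, Plin4, Lep and Cidec share high values in PyMT tumours 4 and 5 and low values in PyMT tumour 1 and PyMT/SIRT6 tumour 2, and the other 4 genes stay near the lower end of the scale.

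Of the 9 genes, 5 ranged over more than 0.5 log2 units across the tumours (Adipoq, Lpl, Plin4, Lep and Cidec), and they did so together. Pearson's r between pairs of these 5 genes over the 11 arrays was 0.834 to 0.941 and Spearman's rho 0.882 to 0.955 over the 10 pairs, given as a description because the arrays share their normalization and the 5 were picked by their range. PyMT tumour 4 was the highest array for 4 of the 5, Lep being the exception. The spread of Adipoq over the 11 arrays (SD 0.94 on the log2 scale) exceeded that of 99.5% of the features tested, that of Lpl 99.4%, that of Plin4 99.2%, that of Lep 90.4% and that of Cidec 77.6%. No deposited intensity was below 117, so ratios of intensities may understate ratios of RNA. With background subtracted by normexp and an offset of 16 added, the ratio of the highest to the lowest tumour was 16.7 for Adipoq, 8.59 for Plin4, 8.05 for Lpl, 3.62 for Lep and 3.52 for Cidec, with the same highest and lowest arrays. As deposited, the ratios were 7.31 for Adipoq, 3.92 for Plin4, 6.52 for Lpl, 1.83 for Lep and 1.68 for Cidec. The subtracted ratios depend on the offset and are not measured RNA ratios. The lowest readings of Lep and Cidec, 161 and 151, lay near the array median of about 157.5.

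By genotype the set showed no called difference. Of the 9 genes with a probe, 6 passed the filter on dim features and 0 of these 6 were called by limma at an adjusted p under 0.05, with 0 at an unadjusted p under 0.05, 3 with a positive and 3 with a negative difference, where 0.0136% of all features were called. Plin1 and Fabp4, both left out by the filter, had the smallest p-values in the fit without it, at -0.08 ± 0.04 (SE, limma adjusted p = 0.982) and -0.05 ± 0.03 (SE, limma adjusted p = 0.982). The median difference of the 6 tested genes was -0.01, and that of all features tested was -0.01. The intervals of the plot of genotype differences are widest for the genes that varied most among tumours. That of Cidec is narrower than those of Adipoq and Lpl, but this need not mean a closer bound on its RNA difference. Cidec read close to background, and its ratio of highest to lowest tumour was 1.68 as deposited and 3.52 with background subtracted.

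**Figure D2:**
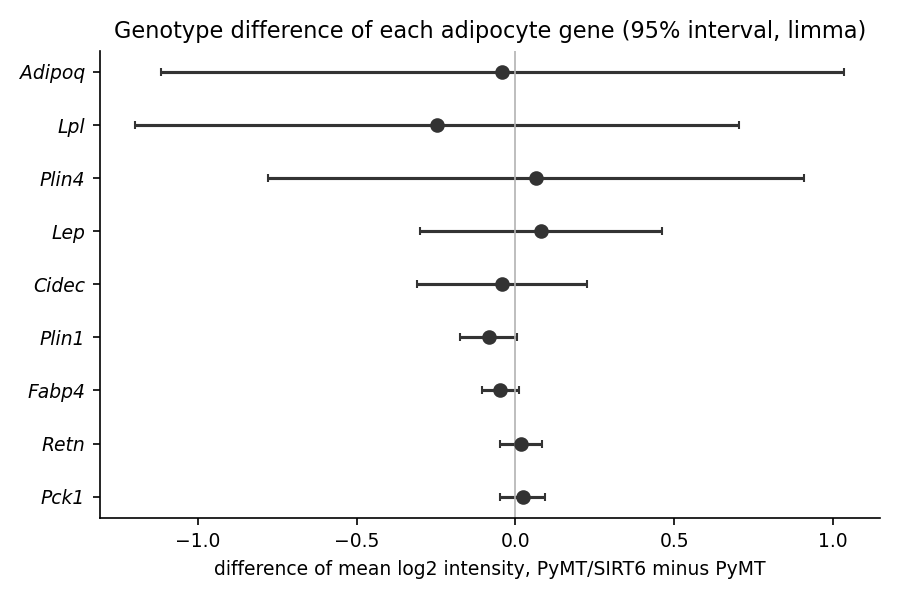
Difference of mean log2 intensity, PyMT/SIRT6 minus PyMT, for the brightest probe of each measured adipocyte gene, as points with limma's 95% interval (n = 5 and 6 arrays). Every interval includes 0; that of Adipoq runs from -1.12 to 1.04 and that of Cidec from -0.31 to 0.23.

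For a single figure of fat content per tumour, the log2 intensities of the 9 genes' brightest probes were averaged into an adipocyte summary. It was 7.89, 7.56, 8.03, 8.15 and 8.27 in PyMT/SIRT6 tumours 1 to 5, against 7.57, 8.02, 7.68, 8.54, 8.43 and 7.84 in PyMT tumours 1 to 6. From most to least fat signal the tumours ran PyMT 4, PyMT 5, PyMT/SIRT6 5, PyMT/SIRT6 4, PyMT/SIRT6 3, PyMT 2, PyMT/SIRT6 1, PyMT 6, PyMT 3, PyMT 1 and PyMT/SIRT6 2, so PyMT tumours held both of the highest places and a PyMT/SIRT6 tumour the lowest. PyMT 4, PyMT 5, PyMT/SIRT6 5 and PyMT/SIRT6 4, the highest in the summary, were all among the last 5 arrays in deposit order. PyMT 6, the remaining array of these, stood 8th. A relation of the summary to deposit order was not tested. The group means were 7.98 ± 0.27 in PyMT/SIRT6 tumours (SD, n = 5) and 8.01 ± 0.40 in PyMT tumours (SD, n = 6). Their difference of -0.03 was smaller than the pooled spread within the genotypes, 0.35. It lay between -0.13 and 0.08 over the 18 alternatives tried. The summary includes the dim probes of Fabp4, Plin1, Retn and Pck1. Over the 6 genes that passed the filter alone, Pck1 still among them, the mean was 8.36 ± 0.42 in PyMT/SIRT6 tumours (SD, n = 5) and 8.39 ± 0.59 in PyMT tumours (SD, n = 6), and the 11 tumours stood in the same order.

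Skeletal muscle RNA followed a distribution of its own. The muscle summary, the mean log2 intensity of 24 contractile and metabolic muscle genes, was 9.53, 7.62, 7.36, 10.21 and 10.95 in PyMT/SIRT6 tumours 1 to 5, against 7.36, 8.21, 7.46, 7.68, 11.18 and 8.16 in PyMT tumours 1 to 6. A gap of 1.31 log2 units separated 4 tumours, PyMT/SIRT6 tumours 1, 4 and 5 and PyMT tumour 5, from the other 7. Ckm, the muscle creatine kinase, showed the gap in a single gene, at 1082, 1899 and 5197 in PyMT/SIRT6 tumours 1, 4 and 5 and 5350.0 in PyMT tumour 5, against 145 to 253 elsewhere. The skeletal actin gene Acta1 reached 23858 in PyMT/SIRT6 tumour 5 and 22422 in PyMT tumour 5, and its lowest value was 165 in PyMT tumour 1 (it was chosen after its values were seen). Among the tumours below the gap Acta1 was graded. It read 1588 in PyMT tumour 2, 1327 in PyMT tumour 6 and 600 in PyMT/SIRT6 tumour 2, so tumours below the gap were not all without muscle signal.

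Fat and muscle signal did not go together in every tumour. PyMT tumour 4, the tumour with the most fat signal, stood 7th of 11 in muscle signal, with Ckm at 164. PyMT tumour 5 was high in both, as were PyMT/SIRT6 tumours 5 and 4. PyMT/SIRT6 tumour 1 had the 4th highest muscle signal and only the 7th highest fat signal, and PyMT/SIRT6 tumour 3 had the 5th highest fat signal with muscle 10th. The adipocyte summary ran from 7.89 to 8.43 in the 4 tumours above the gap and from 7.56 to 8.54 in the 7 below it, so both the highest and the lowest fat signal lay among tumours low in muscle. Gene by gene over all 11 arrays, the median r of the 23 tested muscle genes with the adipocyte summary was 0.543, beside -0.03 over all features tested and 0.705 over the 26 tested genes of a list of other adipocyte genes. The tumours fell into separate clusters of muscle signal, so that value mixes the step of 4 tumours against 7 with the order inside each cluster. It is a description only, and the 2 summaries were correlated within a cluster alone. Within the 7 tumours below the gap, Pearson's r of the 2 summaries was 0.224 and Spearman's rho 0.321, and r was 0.449 over the 5 tumours left without PyMT 2 and PyMT 6, the farthest from the median in muscle signal. For the single pair of Adipoq and Ckm in the same 7 tumours r was 0.205 (exact permutation p = 0.659, two-sided, 5040 orders) and rho 0.107 (exact permutation p = 0.84, two-sided), 1 relation of this kind having been tested, and r was 0.328 without PyMT 2 and PyMT 6. With 7 tumours a moderate relation was not detectable. The 4 tumours above the gap were too few for a value, but they stood in the same order in both summaries. From PyMT/SIRT6 tumours 1, 4 and 5 to PyMT tumour 5, muscle was 9.53, 10.21, 10.95 and 11.18. Fat in these tumours was 7.89, 8.15, 8.27 and 8.43.

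**Figure D3:**
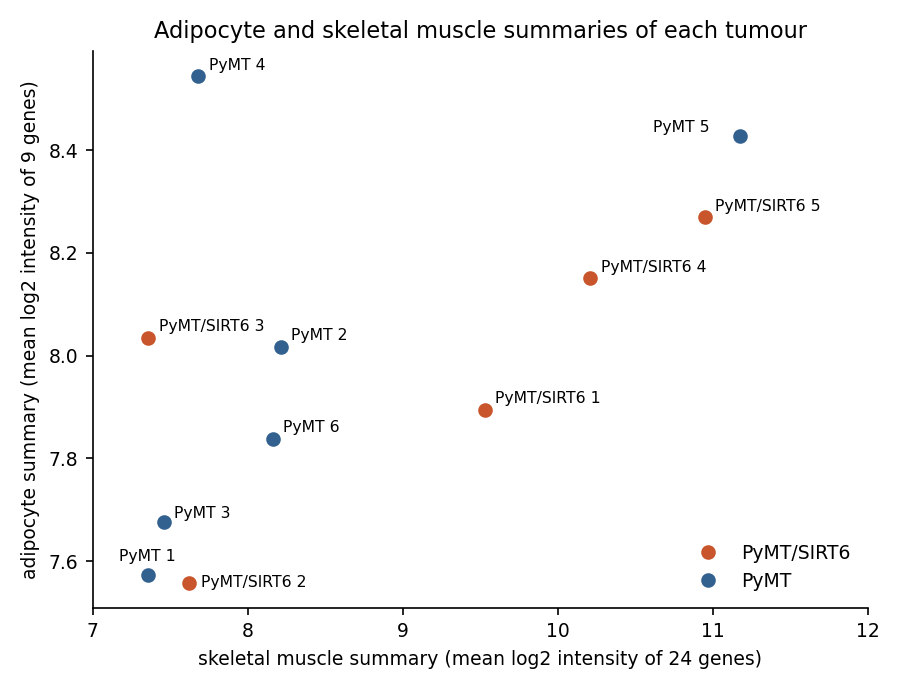
Adipocyte summary (mean log2 intensity of 9 genes) against skeletal muscle summary (mean log2 intensity of 24 genes), 1 point per tumour, PyMT/SIRT6 in orange and PyMT in blue. PyMT 4 has the highest adipocyte summary, 8.54, at a muscle summary of 7.68, and the 4 tumours above the muscle gap range from 7.89 to 8.43 in adipocyte summary.

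Other genes of adipocyte biology, a list of 36 of which 33 had a probe and 26 passed the filter, mostly followed the same tumours. Their median r with the adipocyte summary over the 11 arrays was 0.705, beside -0.03 over all features tested, and 18 of the 26 were highest in PyMT tumour 4 or 5 (69.2%, beside 15.8% of all features tested). Both values are descriptions, since the arrays and their normalization are shared. Single genes of the list differed. Npr3 (-0.231), Pnpla2 (0.406) and Bscl2 (0.428) had the lowest r of those tested. Cd36, left out by the filter, had an r of -0.618 and ranged only 1.12-fold. Pparg, the nuclear receptor that drives adipocyte differentiation, had intensities of 201, 178, 214, 230.3 and 246 in PyMT/SIRT6 tumours 1 to 5, against 196, 225, 182, 327, 296 and 221 in PyMT tumours 1 to 6. PyMT tumours 4 and 5 were highest on this probe (ILMN_1221060), and 2 dimmer Pparg probes stayed between 141 and 154 on all arrays. Dgat2, which makes triglyceride, stood out in the same PyMT tumours 4 and 5, at 1147 and 1817, while it lay at 265 to 568 in PyMT/SIRT6 tumours and 215 to 356 in the other PyMT tumours. Car3, a carbonic anhydrase abundant in both fat and muscle, ran 22.3-fold, from 184 in PyMT tumour 1 to 4109.8 in PyMT/SIRT6 tumour 5. Car3 was also high in PyMT tumour 4, low in muscle signal, at 1981. Pparg, Dgat2 and Car3 are given for their pattern and were chosen after their values were seen. By genotype, 8 of the 26 had a positive and 18 a negative difference with 0 called by limma (0 at an unadjusted p under 0.05), a median difference of -0.06. The smallest p-values belonged to the monoglyceride lipase gene Mgll (-0.36 ± 0.18, SE, limma adjusted p = 0.983), Adig (0.53 ± 0.29), the lipid droplet gene Cidea (-0.40 ± 0.25) and the secreted factor gene Nrg4 (-0.09 ± 0.06), all with the same adjusted p.

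Some markers of brown fat varied too, in another order of tumours than the adipocyte summary, and others hardly varied. Elovl3 and Dio2 were left out by the filter and ranged only 1.14-fold and 1.15-fold between tumours. Ppargc1a ranged 1.27-fold and was highest in PyMT tumour 2. Prdm16 (1.66-fold) and Cox7a1 (4.04-fold) were highest in PyMT tumour 5. Cox7a1 read 1125, 1441 and 1632 in PyMT/SIRT6 tumours 1, 4 and 5 and 1928 in PyMT tumour 5. These tumours lie above the muscle gap, and elsewhere Cox7a1 read 478 to 1064. Ucp1, the uncoupling protein that defines brown and beige adipocytes, had intensities of 214, 142, 140.1, 178 and 238 in PyMT/SIRT6 tumours 1 to 5, against 146, 141, 139.6, 211, 371 and 243 in PyMT tumours 1 to 6. It was 178 or more in PyMT/SIRT6 tumours 1, 4 and 5 and PyMT tumours 4, 5 and 6, and 139.6 to 146 in the other 5 tumours, so the genotypes overlapped. The 4 tumours above the muscle gap were all among these 6, and PyMT tumour 6, 8th in fat signal, was second in Ucp1. The last 5 arrays in deposit order, PyMT tumours 4, 5 and 6 and PyMT/SIRT6 tumours 4 and 5, were also all among these 6. Neither match was tested. Cidea, which also marks brown fat, was highest in the same PyMT tumours 5, 4 and 6, at 556, 326 and 302, against 167 to 246 in PyMT/SIRT6 tumours. PyMT tumours 1, 2 and 3 read 208, 186 and 180, inside the PyMT/SIRT6 range. Cox8b, a cytochrome oxidase subunit isoform of brown fat that muscle also expresses, ran from 206 in PyMT tumour 1 to 2984 in PyMT tumour 5. The brown fat summary had an r of 0.759 and a rho of 0.791 with the adipocyte summary over the 11 arrays, and an r of 0.635 without PyMT 5 and PyMT/SIRT6 2. Of the 6 tested brown fat genes, among them Cidea, which is on both lists, 2 had a positive and 4 a negative genotype difference with 0 called by limma (0 at an unadjusted p under 0.05). Ucp1, Cidea and Cox8b were chosen for this description after their values were seen, and the part of muscle RNA in the Cox8b and Cox7a1 values was not tested.

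**Figure D4:**
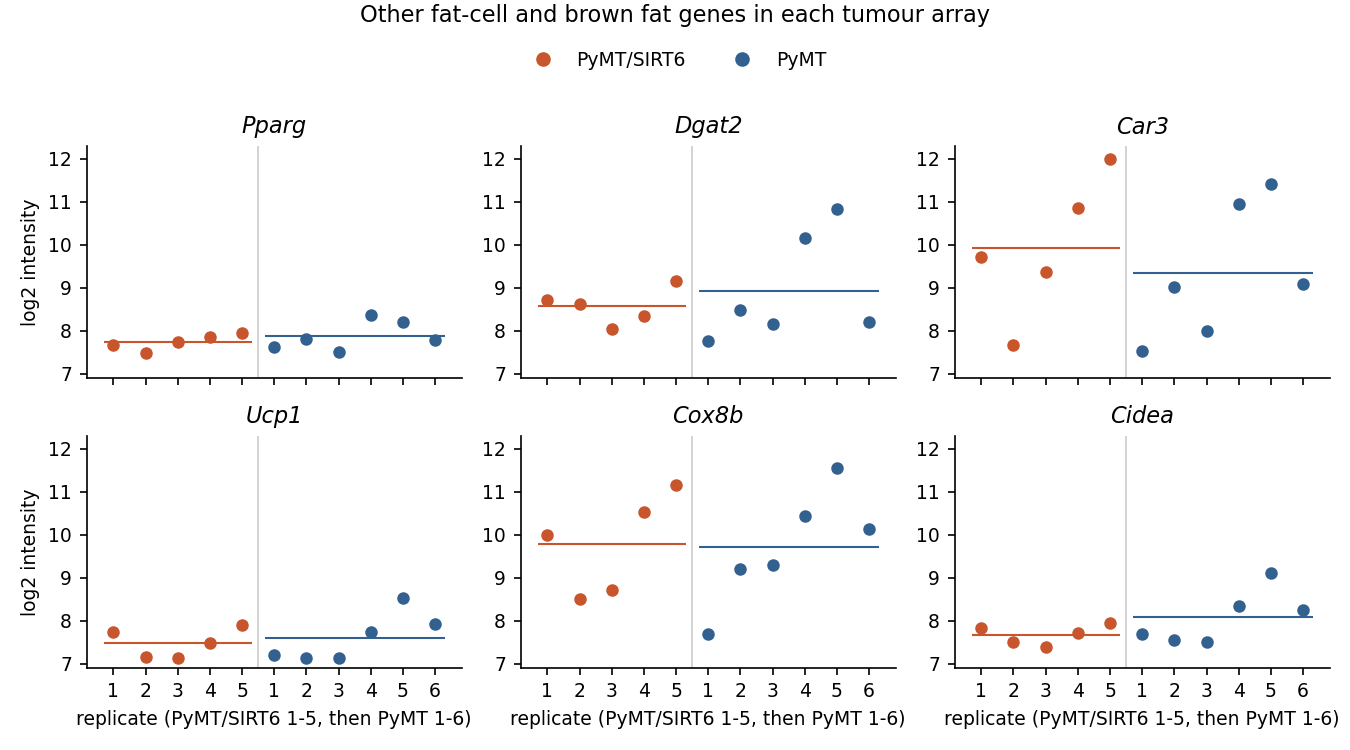
Log2 intensity of the brightest probe of 6 further genes on each array, PyMT/SIRT6 tumours 1 to 5 in orange at the left and PyMT tumours 1 to 6 in blue at the right, with lines at the group means. Pparg and Dgat2 are highest in PyMT tumours 4 and 5, and Ucp1 is higher in 6 tumours than in the other 5, which lie at 139.6 to 146 as intensities.

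The 8 genes outside the list whose log2 intensity was most like the adipocyte summary were, among 11362 named genes compared over the 11 arrays, 2610016A17Rik (r = 0.983), Khk (0.952), Pparg (0.947), Ces1d (0.944), Cdo1 (0.935), Aoc3 (0.931), Fmo1 (0.923) and Fastk (0.921). Without PyMT tumour 4, the highest in the summary, their r ran from 0.902 for Aoc3 to 0.977 for 2610016A17Rik. Ces1d encodes a carboxylesterase that acts on stored lipid, Aoc3 a copper amine oxidase of the adipocyte surface, Cdo1 cysteine dioxygenase and Khk ketohexokinase of fructose breakdown. Their ranges differed widely, from 1.28-fold between the highest and lowest tumour for Khk to 7.02-fold for Ces1d. 2610016A17Rik ranged 1.38-fold, at a mean log2 intensity of 7.39 in both genotypes, close to the filter limit of 7.31. In all, 12 genes reached an r of 0.9 and 69 an r of 0.8. By genotype 0 of these 8 were called by limma, with differences from -0.34 ± 0.40 (SE) for Cdo1 to -0.0011 ± 0.08 for 2610016A17Rik.

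Markers of other cell types were read beside the fat signal, over the brightest probes of lists of each type. The summary of preadipocyte and fibroblast genes followed the adipocyte summary (r = 0.803, rho = 0.855 over 11 arrays, and r = 0.883 without PyMT 3 and PyMT/SIRT6 4), running from 7.96 to 8.51 in PyMT/SIRT6 tumours and from 7.82 to 8.36 in PyMT tumours. Single genes of that list differed, with a median r of 0.533 over the 11 tested. Pi16 and Dcn had the highest r, 0.812 each, while Dlk1 (-0.478) and Zfp423 (0.076) did not follow the adipocyte summary. Macrophage genes did not follow it closely (r = 0.222, rho = 0.218, and r = -0.05 without PyMT/SIRT6 4 and 5), nor did endothelial genes (r = -0.163, rho = -0.245, and r = -0.107 without PyMT 3 and PyMT/SIRT6 1), luminal epithelial genes (r = 0.246, rho = 0.236, and r = 0.174 without PyMT 3 and PyMT/SIRT6 4) or milk genes (r = 0.022, rho = 0.036, and r = -0.345 without PyMT 3 and PyMT/SIRT6 4). Lymph node and B cell genes gave r = 0.531 and rho = 0.5, with 6 of 8 genes measured and 2 above the filter, and r was 0.224 without PyMT 4 and PyMT/SIRT6 5. All 6 liver and kidney markers were dim, with a summary of 7.22 to 7.25 in PyMT/SIRT6 tumours and 7.21 to 7.26 in PyMT tumours. These relations carry no p because the adipocyte summary rests on genes chosen with earlier results known. By genotype limma called 0 genes of these lists, and at an unadjusted p under 0.05 there were 3 milk genes, 1 macrophage gene and 0 of the others. Among the milk genes, which did not pass, the milk protein genes Lalba and Csn2 differed by 0.88 ± 0.21 (SE, limma adjusted p = 0.741) and 2.47 ± 0.90 (SE, limma adjusted p = 0.983) on the log2 scale. The counts of positive and negative differences were 9 and 2 of 11 for fibroblasts, 11 and 1 of 12 for macrophages, 3 and 8 of 11 for endothelium, 2 and 4 of 6 for luminal epithelium, 5 and 5 of 10 for milk genes, 2 and 0 of 2 for the lymph node list and 21 and 2 of 23 for skeletal muscle, beside 6910 and 7816 of all 14726 features.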

How the data were processed

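Per the labels' protocols, total RNA of frozen tumours was amplified to biotinylated cRNA and put on Illumina Mouse WG-6 v2.0 BeadChips. The authors deposited 1 linear intensity per probe and array; their background treatment and normalization were not given in the sources used here. Once sorted, the arrays differed by at most 1.08% at the quantiles compared and were not scaled again; the lowest intensity was 117. Detection p-values, slides and scan dates were not used. Precision is limited by having 11 arrays.

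Of 45281 probes, 34885 had 1 gene symbol, 18 several and 10378 none in the platform annotation; 34807 matched RefSeq GRCm38.p6, which changed 0 symbols. The brightest probe per gene by mean over all arrays was kept, and the lower 50% of the 29453 features by mean (below 158.6) left out. Log2 intensities were compared by limma 3.58.1 in R 4.3.3 (lmFit, eBayes with trend, Benjamini-Hochberg over 14726 features, threshold 0.05), as PyMT/SIRT6 minus PyMT; genes left out by the filter took their values from the fit without it. The exact two-sided permutation test ran over 462 splits. The fit was first tested on simulated data. Motifs and summaries were computed in Python 3.11.15. Members and lists were chosen with earlier results of these data known. The text names all members, for some lists up to 4 genes of smallest p, and the 8 genes most like the adipocyte summary. Sirt6 was named as the check of the genotype labels, Tle6 and Tle5 as the called features, and Ckm for its pair with Adipoq. Other genes were chosen after their values were seen or named to show the spread within a list. The table of alternatives covers filters, probe choice, scaling, background, covariates and each array left out.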

Additional observations from a re-analysis of the deposited data

Results flagged for a closer look

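Within a genotype, 7 of the values lay far from the others of their group, by the gap to the nearest array as a share of the group's range, of 80 combinations of probe or summary and genotype examined; chance gives about 1 in 20. Cidec was low in PyMT/SIRT6 tumour 2, at 7.24 against 7.51 to 7.61 in the other PyMT/SIRT6 tumours (gap 0.731 of the range). Ckm stood at 12.39 in PyMT tumour 5 against 7.24 to 7.98 in the other PyMT tumours (0.855), and the skeletal muscle summary at 11.18 against 7.36 to 8.21 (0.775). The lymph node and B cell summary was 7.57 in PyMT/SIRT6 tumour 5 against 7.34 to 7.39 (0.775). The remaining 3 were dim probes with small ranges: the second Lpl probe, highest in PyMT tumour 5 at 7.33 (0.84), Retn, highest in PyMT tumour 3 at 7.33 (0.711), and the second Pck1 probe, lowest in PyMT tumour 2 at 7.08 (0.632).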

How the results depend on the processing

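The count of 0 called adipocyte genes held under all 25 alternatives. The difference of the adipocyte summary ran from -0.13 to 0.08 over 18 alternatives, and the r of fat with muscle signal within the 7 tumours below the gap from 0.068 to 0.419 over 17. Signs of single genes, none called, changed as follows. With deposit order as a block Adipoq was at 0.10. With the muscle summary as a covariate Plin4 was at -0.17 and Lep at -0.0062, and without the 4 tumours above the muscle gap, an alternative chosen after seeing the data, at -0.10 and -0.0043. Leaving out each array in turn gave -0.34 to 0.29 for Adipoq, -0.14 to 0.29 for Plin4, -0.027 to 0.18 for Lep, -0.10 to 0.045 for Cidec and -0.48 to 0.036 for Lpl. Sirt6 passed the threshold in 9 of 25 alternatives. Calls over all features numbered 0 to 6 against 2, with 0 without the 4 tumours above the muscle gap (442 at an unadjusted p under 0.05), 1 with deposit order as a block or without PyMT/SIRT6 1 or 5 or PyMT 1, 2, 3, 4 or 6, 4 with probe means, array weights or normexp, and 6 with every probe tested. No paired analysis was possible because the labels give no replicate numbers. Slide could not be used as a block. The dim probes of Plin1, Fabp4, Retn and Pck1 limit what can be said of those genes.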
